A study of Mus musculus with 14 samples.

Results

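The ATP-binding cassette (ABC) family of mouse genes was followed across 14 arrays of gallbladder, liver and small intestine material. Its members were the genes whose symbol starts with Abc, a subfamily letter from a to g and a number. There were 48 of them among 19938 genes, each read through the brightest of its probe sets that carry only that symbol, a choice that mattered for Abcb5 alone. RNA was taken from 7 groups of C57BL/6 mouse material with 2 arrays each. Differentiated gallbladder organoids had gone 2 weeks with no R-spondin 1, noggin or nicotinamide in their medium. The gallbladder, liver and small intestine organoids are listed under 1 medium that held all of these together with EGF, FGF10 and HGF, and they grew in Matrigel. Gallbladder, liver and small intestine tissue made up the remaining groups. Whether the 2 replicates of a group are different animals or cultures is not given in the labels. The p-values measure the spread between these arrays, which may be technical. In such bulk samples, fewer cells of a type and less RNA per cell cannot be told apart.

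ABC proteins bind and hydrolyse ATP, and most of them use it to push a substrate out of the cytoplasm across a membrane. At the canalicular membrane of hepatocytes they build bile by exporting bile acids, phosphatidylcholine, sterols and conjugated organic anions, while others return anions to the blood, keep drugs out of epithelia, load lipoproteins with cholesterol or serve peroxisomes and mitochondria. The epithelium of the gallbladder and bile ducts lies downstream of that export and is bathed in the bile it makes.

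Values are log2 signals made by the authors with RMA, and a difference of 1 is a 2-fold change in signal. Members are compared with themselves across groups, never with each other. Differences are the group named first minus the other, given with the standard error of the fit to all arrays (± SE), so a negative one means lower in the group named first. Differences were tested with limma in 1 fit to all arrays and all 19938 genes, and called at a Benjamini-Hochberg adjusted p below 0.05. Tissue arrays varied more than organoid arrays. The pooled SD of the members between replicates was 0.0885 to 0.139 in the 4 organoid groups, 0.272 in liver tissue, 0.334 in small intestine tissue and 0.792 in gallbladder tissue. A single estimate of the spread is therefore wide for organoids and narrow for gallbladder tissue, and each call was also read in a fit with a weight for each array and in a fit to the arrays of the groups compared. A call is named steady below where it held in all 3 fits and without each array in turn.

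The labels were checked against cell type markers. The mean over 8 hepatocyte markers was 13.12 and 14.06 in gallbladder tissue and 14.17 and 14.14 in liver tissue, against 6.89 to 7.17 in the gallbladder and liver organoids. Albumin (Alb) read 14.30 in each gallbladder tissue array and 6.04 to 6.67 in those organoids. Both gallbladder tissue arrays therefore have a strong signal of hepatocyte genes, replicate 2 near liver tissue in this mean, whose value of about 14 is near the top of the scale. Replicate 2 was not at the liver level in every gene. Abcd2 read 8.70 in it, against a mean of 11.02 in liver tissue, while Abcc2 read 12.35 against 12.36. Between the 2 gallbladder tissue arrays, 12 of the 48 members differed by at least 1. Small intestine tissue replicate 2 had a mean of 12.47 over 3 pancreatic acinar markers, against 7.01 in replicate 1. Over 7 biliary and gallbladder epithelium markers, liver tissue read 7.39 and 7.16, gallbladder tissue 11.06 and 10.57 and small intestine tissue 9.96 and 10.07. Small intestine organoids read 10.39 and 10.32 over the same markers, so the list is not particular to biliary material. It was highest, at 11.70 to 11.95, in the gallbladder and liver organoids. Their hepatocyte markers were low apart from transthyretin (Ttr), which read 12.52 and 12.47 in differentiated gallbladder organoids, 10.15 and 10.45 in gallbladder organoids and 12.67 and 12.56 in those of liver, against 14.23 and 14.34 in liver tissue. The part of these differences in the results below was not tested, except where a value without an array is given.

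The family was more spread over the groups than most genes. The median distance from a member's lowest to its highest array was 2.02, against 1.22 over all genes, and 13 members spanned at least 4 log2 units, as did 7.64% of all genes. Only 10 members (20.8%, against 39.8% of all genes) stayed within 1 log2 unit, and 8 of these 10 lay among the dimmest 40% of genes, where a probe set may be reading little but background. Mean signal was highest in liver tissue for 13 members (27.1%, against 20.5% of all genes), in small intestine tissue for 10 (20.8% against 13.3%) and in differentiated gallbladder organoids for 7 (14.6% against 9.19%). It was highest in gallbladder organoids for 6 (12.5% against 18.8%), in liver organoids for 5 (10.4% against 10.6%), in gallbladder tissue for 4 (8.33% against 14.2%) and in small intestine organoids for 3 (6.25% against 13.3%). The heat map of all members shows them side by side.

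**Figure D1:**
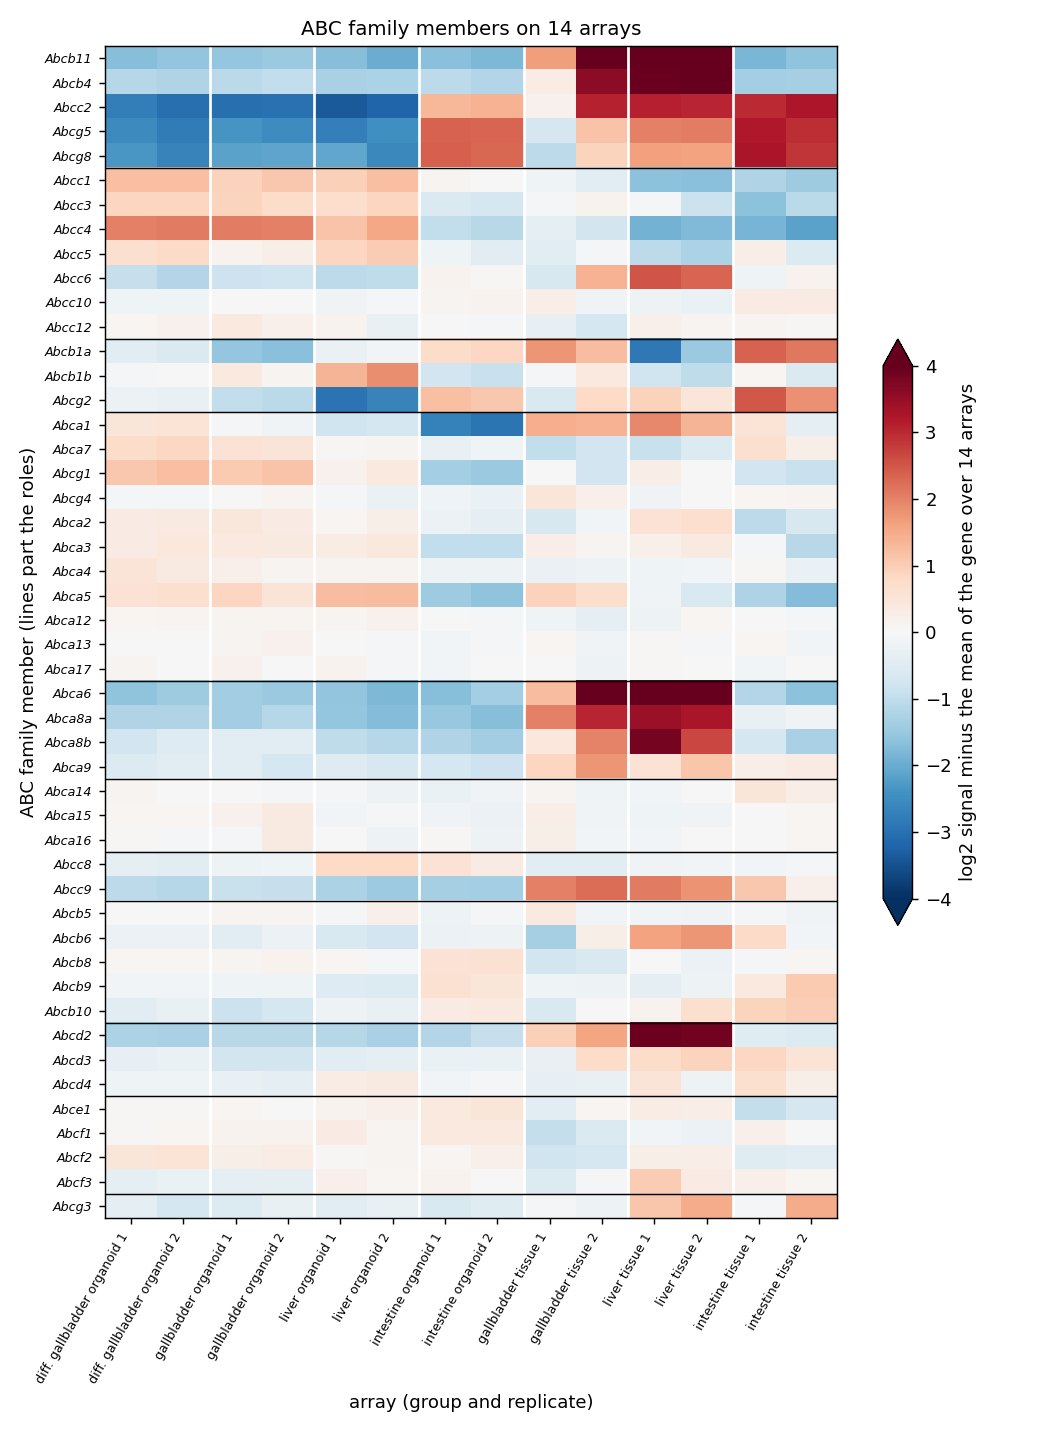
Log2 signal of the 48 members (rows, in order of role) on the 14 arrays (columns), each row minus its own mean over the arrays, with colours saturating at -4 and 4. The bile exporters in the top rows are red in liver tissue and gallbladder tissue replicate 2 and blue in gallbladder and liver organoids, while Abcc1, Abcc3 and Abcc4 are red in gallbladder and liver organoids and blue in small intestine tissue.

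Exporters of bile components were low in gallbladder and liver organoids. Abcb11 (probe set 10483410, chromosome 2) is the bile salt export pump. It read 5.52 and 5.24 in liver organoids, against 12.50 and 12.72 in liver tissue. In gallbladder organoids it read 5.69 and 5.74, in differentiated ones 5.51 and 5.65, and in small intestine organoids 5.55 and 5.42. All 8 organoid arrays thus lay below 6, and so did both small intestine tissue arrays (5.39 and 5.61), while gallbladder tissue read 8.88 and 11.69, apart from each other and both above every organoid array. The difference of liver organoids from liver tissue was -7.23 ± 0.64, adjusted p = 9.41e-06.

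Abcb4 (probe set 10519578, chromosome 5), which moves phosphatidylcholine into bile, had the same outline. Its values were 6.36 and 6.41 in liver organoids and 11.63 and 11.68 in liver tissue, with 6.59 and 6.70 in gallbladder organoids and 7.98 and 11.26 in gallbladder tissue. The first gallbladder tissue array was 3.28 below the second, the widest gap between replicates of any member. Abcc2 (probe set 10463308, chromosome 19) exports conjugated bilirubin and other anions at the apical membrane and is made in enterocytes as well as hepatocytes. It read 10.61 and 10.68 in small intestine organoids, against 5.92 and 6.09 in liver organoids and 6.26 and 6.30 in gallbladder organoids. In tissue it stood at 9.44 and 12.35 in gallbladder, 12.40 and 12.32 in liver and 12.27 and 12.50 in small intestine. Small intestine organoids thus read above the other organoids in Abcc2, between the 2 gallbladder tissue arrays and below every array of liver and small intestine tissue.

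Abcg5 (probe set 10453318) and Abcg8 (probe set 10447239), which join to export cholesterol and plant sterols, lie head to head on chromosome 17 with no protein-coding gene between them, and had parallel values. Abcg5 read 6.999 and 6.77 in differentiated gallbladder organoids, 7.19 and 7.02 in gallbladder organoids, 6.82 and 7.11 in liver organoids, with 11.91 and 11.89 in those of small intestine. Abcg8 read 7.001 and 6.66 in differentiated gallbladder organoids, 7.20 and 7.21 in gallbladder organoids, 7.25 and 6.76 in liver organoids, with 11.71 and 11.62 in those of small intestine. Small intestine organoids lay far above the other organoids for each gene, with no overlap. In tissue Abcg5 read 8.89 and 10.70 in gallbladder, 11.58 and 11.61 in liver and 12.74 and 12.52 in small intestine. Abcg8 read 8.29 and 10.22 in gallbladder, 10.98 and 10.93 in liver and 12.61 and 12.20 in small intestine tissue.

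The stretch between the start sites of these genes is short enough to print whole, and is shown because both genes are read outward from it. It is chr17:84683012-84683120 of GRCm38.p6 in RefSeq, on the strand of Abcg8, with the start of Abcg5 before its left end and that of Abcg8 after its right end. Capitals mark 2 matches to AGATAA, the letters bound by GATA factors, and 1 to TATAAA, the TATA box, all of them in the reverse orientation.
Abcg5-Abcg8 interval: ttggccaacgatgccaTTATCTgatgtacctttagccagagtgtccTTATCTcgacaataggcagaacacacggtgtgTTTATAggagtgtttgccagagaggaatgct
The AGATAA matches begin 93 and 63 bases before the Abcg8 start, and the TATAAA match 31 bases before it. Searching both strands of the 250 bases before each of 32851 annotated starts, 9.99% hold AGATAA and 12.4% hold TATAAA. Of the 38 members with such a stretch in the reference, 5 hold each of these motifs, a share near that of all starts. Abcg5 and Abcg8 are among them for both motifs. The stretches of these 2 genes share the interval printed here, so the same letters are counted for each of them. A match is a string of letters, not a bound site.

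As a group, 5 of the 5 bile exporters were lower in liver organoids than in liver tissue, where 44.9% of all genes were called in either direction and 18.2% were lower, and all 5 calls were steady. In gallbladder organoids against gallbladder tissue 5 of 5 were lower (47.9% of all genes called, 15.2% lower). Of these, Abcb11 (-4.58 ± 0.64), Abcc2 (-4.61 ± 0.66) and Abcg5 (-2.69 ± 0.43) were steady. Abcb4 (-2.97 ± 0.74) and Abcg8 (-2.05 ± 0.47) were not called with only the arrays compared (limma adjusted p = 0.113 and 0.081). The 8 hepatocyte markers were lower in the organoids in both comparisons, 8 of 8 each time. In small intestine organoids against tissue 0 of 5 were called (35.8% of all genes called, 20.2% higher and 15.6% lower), though with only the arrays compared Abcc2 (-1.74, adjusted p = 0.0043), Abcg5 (-0.73, adjusted p = 0.0181) and Abcg8 (-0.74, adjusted p = 0.0397) were lower. Against small intestine organoids, gallbladder organoids were lower in Abcg5 (-4.79 ± 0.43), Abcg8 (-4.46 ± 0.47) and Abcc2 (-4.36 ± 0.66), all of them steady, where 35.6% of all genes were called and 15.4% were lower.

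Several bile acid and organic anion carriers of the SLC families were also lower in gallbladder and liver organoids than in tissue. Slc10a1, the sodium-dependent bile acid importer of hepatocytes, read 5.93 and 5.66 in liver organoids, against 13.21 and 13.31 in liver tissue, and 5.77 and 5.88 in gallbladder organoids and 10.99 and 12.84 in gallbladder tissue. Of 8 carriers of bile acids and organic anions from the SLC families, 6 fell in liver organoids against liver tissue and 5 in gallbladder organoids against gallbladder tissue, with 0 higher in either, where 18.2% and 15.2% of all genes were lower. Slc10a2, the importer of the ileum and bile ducts, was called in neither. It read 10.35 and 10.40 in gallbladder organoids and 11.14 and 11.25 in liver organoids, against 5.66 and 5.96 in small intestine organoids. Its small intestine tissue arrays read 11.94 and 6.18 and lie too far apart to place that tissue.

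**Figure D2:**
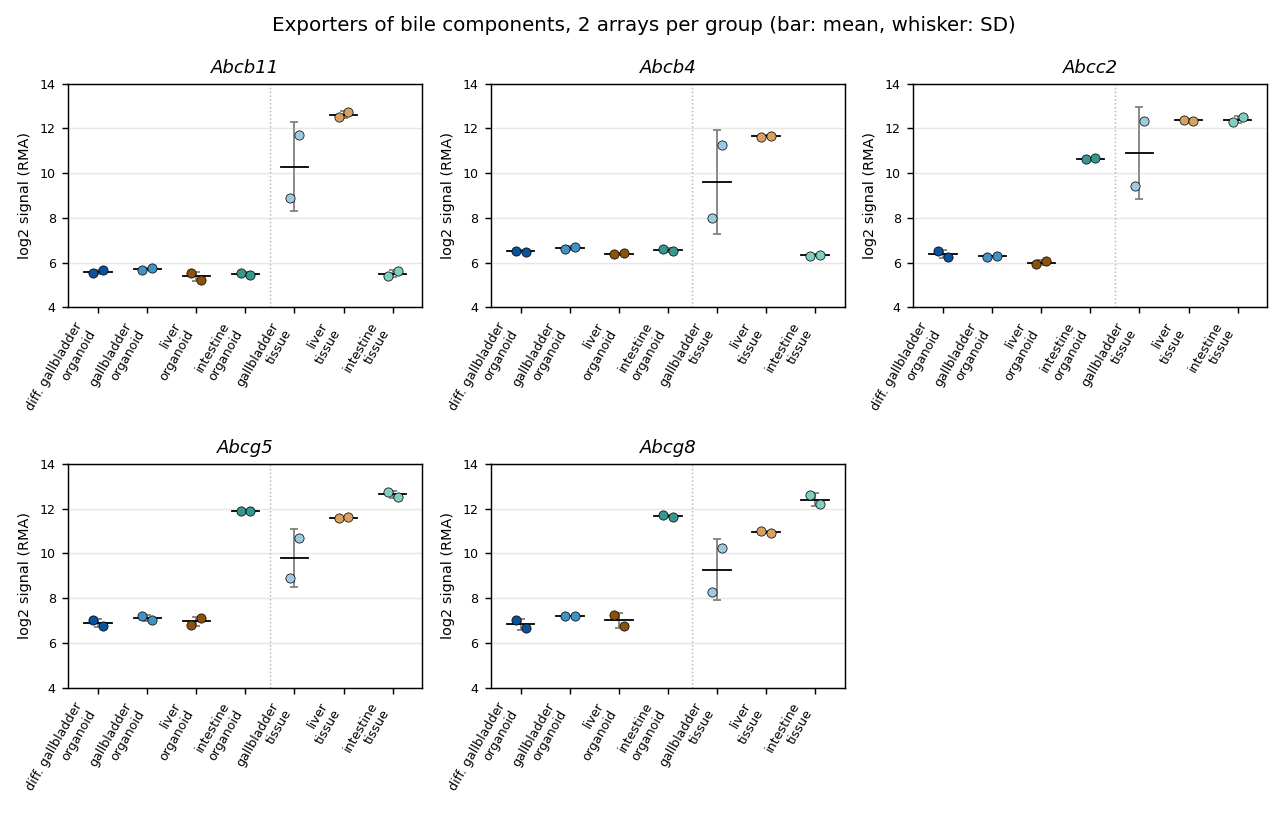
Log2 signal of 5 exporters of bile components on each array (points), with the group mean (bar) and SD (whisker, n = 2 arrays), in 4 organoid groups left of the dotted line and 3 tissues right of it. Abcc2, Abcg5 and Abcg8 are high in small intestine organoids and low in the other organoids, and the gallbladder tissue arrays lie far apart in all 5 panels.

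Of the exporters of organic anions outside the canaliculus, Abcc1, Abcc3 and Abcc4 were higher in organoids. Abcc4 (probe set 10422280, chromosome 14) exports cyclic nucleotides, prostaglandins and, with glutathione, bile acids. It read 11.59 and 11.66 in differentiated gallbladder organoids, 11.63 and 11.60 in gallbladder organoids, 10.74 and 11.12 in liver organoids, with 8.60 and 8.47 in those of small intestine. The tissues read 9.21 and 8.86 in gallbladder, 7.68 and 7.83 in liver and 7.73 and 7.44 in small intestine. Gallbladder and liver organoids were above all other arrays, and the 2 gallbladder organoid groups overlapped each other. Abcc4 was higher in organoids than in tissue by 2.58 ± 0.16 in gallbladder, 3.17 ± 0.16 in liver and 0.95 ± 0.16 in small intestine, and all 3 calls were steady.

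Abcc1 (probe set 10433735, chromosome 16), which exports glutathione conjugates and leukotrienes, was also higher in organoids than in the tissue of each organ. It read 10.18 and 10.33 in gallbladder organoids and 9.07 and 8.80 in gallbladder tissue, 10.22 and 10.46 in liver organoids and 7.61 and 7.58 in liver tissue, and 9.36 and 9.23 in small intestine organoids and 8.05 and 7.83 in small intestine tissue. No organoid array overlapped the tissue of its organ, and the differences were 1.32 ± 0.13, 2.75 ± 0.13 and 1.36 ± 0.13, each steady. Abcc3 (probe set 10389894, chromosome 11) returns bile acids and glucuronides to the blood across the basolateral membrane. It read 12.48 and 12.33 in gallbladder organoids and 12.29 and 12.46 in liver organoids, against 11.52 and 11.74 in gallbladder tissue and 11.53 and 10.74 in liver tissue. Abcc3 was higher in liver organoids than in liver tissue by 1.24 ± 0.24, a steady call. It was also called higher in gallbladder organoids than in gallbladder tissue (0.77 ± 0.24, adjusted p = 0.0245), which ended without either gallbladder organoid array or gallbladder tissue replicate 1, and in small intestine organoids against tissue (0.72 ± 0.24, adjusted p = 0.0429), where it ended with only the arrays compared (adjusted p = 0.0802), without any 1 organoid array and without small intestine tissue replicate 1.

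Abcc1, Abcc3 and Abcc4 were the 3 members called higher in organoids of all 3 organs (6.25% of members, against 6.8% of all genes), and these 3 comparisons share no array. The rest of this role was mixed. Abcc5, an exporter of cyclic nucleotides, was higher in liver organoids than in liver tissue (2.09 ± 0.23, adjusted p = 4.15e-05), and its differences in gallbladder (0.43 ± 0.23) and small intestine (-0.14 ± 0.23) were not called. Abcc6, known from pseudoxanthoma elasticum in people, read 7.24 and 7.27 in liver organoids, against 10.82 and 10.62 in liver tissue, lower in the organoids (-3.46 ± 0.48). Over the 7 members of this role, 4 rose and 0 fell in gallbladder organoids against tissue, 4 rose and 1 fell in liver, and 3 rose and 0 fell in small intestine, where 32.7%, 26.7% and 20.2% of all genes were higher.

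The multidrug exporters separated the 3 kinds of organoid. Abcb1a and Abcb1b, neighbours on chromosome 5, both encode P-glycoprotein, the drug pump of gut, liver and the blood-brain barrier, in the mouse. Abcb1a (probe set 10519527) read 9.84 and 9.70 in differentiated gallbladder organoids, 8.72 and 8.59 in gallbladder organoids, 10.004 and 10.15 in liver organoids, with 10.99 and 11.11 in those of small intestine, with no overlap between any of these groups. In tissue it read 12.03 and 11.49 in gallbladder, 7.40 and 8.77 in liver and 12.63 and 12.37 in small intestine. Abcb1b (probe set 10519555) read 6.92 and 6.97 in differentiated gallbladder organoids, 7.37 and 7.12 in gallbladder organoids, 8.36 and 8.85 in liver organoids, with 6.24 and 6.11 in those of small intestine, so that liver organoids were highest and small intestine organoids lowest. In the tissues Abcb1b read 6.93 and 7.39 in gallbladder, 6.21 and 5.99 in liver and 7.08 and 6.42 in small intestine. The genes are close relatives, and how far the probes of each read the other is unknown.

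The 2 genes differ in the order of the organoids. Gallbladder organoids were below small intestine organoids in Abcb1a (-2.40 ± 0.35, adjusted p = 0.000462) and above them in Abcb1b (1.07 ± 0.24, adjusted p = 0.0063). Liver organoids were above small intestine organoids in Abcb1b (2.43 ± 0.24, adjusted p = 3.33e-05), a steady call, and below them in Abcb1a (-0.98 ± 0.35, adjusted p = 0.0691), which was not called in the fit to all arrays but was with only the arrays compared (adjusted p = 0.000199). The 250 bases before the first start listed for each gene are printed since these neighbours were read so differently. Any other start was not looked at, and which start was used in these samples was not measured. The windows are chr5:8566841-8567090 for Abcb1a and chr5:8797897-8798146 for Abcb1b in GRCm38.p6 (RefSeq), both on the plus strand. In the Abcb1a window capitals mark CAAAGTTCA, a form of the HNF4 motif, and the reverse of the FOXA motif TGTTTAC, and in the Abcb1b window a match to the C/EBP motif TTGCNNAA in reverse and a GC box, GGGCGG.
Abcb1a promoter: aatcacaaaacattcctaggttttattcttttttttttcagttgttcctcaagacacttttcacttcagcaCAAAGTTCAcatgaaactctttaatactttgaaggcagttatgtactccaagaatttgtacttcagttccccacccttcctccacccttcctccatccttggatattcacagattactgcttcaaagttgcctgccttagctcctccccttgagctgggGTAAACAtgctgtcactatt
Abcb1b promoter: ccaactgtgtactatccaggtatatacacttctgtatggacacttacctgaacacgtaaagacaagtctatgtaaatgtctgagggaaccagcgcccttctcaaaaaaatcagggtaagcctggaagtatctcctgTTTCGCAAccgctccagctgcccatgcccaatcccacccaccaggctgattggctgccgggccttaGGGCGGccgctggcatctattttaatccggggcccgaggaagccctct
In Abcb1a these begin 179 and 20 bases before the start, and in Abcb1b 114 and 48 bases before it. Searched on both strands of all 32851 windows, CAAAGTTCA is in 0.335%, TGTTTAC in 3.17%, TTGCNNAA in 9.56% and GGGCGG in 32.7%. These are matches of letters, and nothing about the binding of a factor was measured.

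Abcg2 (probe set 10538640, chromosome 6), the exporter of urate, porphyrins and many drugs, ran in another order. It read 8.14 and 8.09 in differentiated gallbladder organoids, 7.40 and 7.29 in gallbladder organoids, 5.43 and 5.70 in liver organoids, with 9.56 and 9.46 in those of small intestine, again with no overlap. The tissues read 7.76 and 9.17 in gallbladder, 9.30 and 8.86 in liver and 10.87 and 10.19 in small intestine. Liver organoids were the low point of all 14 arrays, lower than liver tissue (-3.51 ± 0.38) and than small intestine organoids (-3.95 ± 0.38), both steady. Gallbladder organoids were also lower than small intestine organoids (-2.17 ± 0.38, steady).

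The organoid minus tissue difference of each of these genes was not the same in gallbladder and liver. Abcb1a was lower in gallbladder organoids than in gallbladder tissue (-3.11 ± 0.35) and higher in liver organoids than in liver tissue (1.99 ± 0.35), each steady. The difference between these differences was -5.10 ± 0.50, adjusted p = 5.48e-05, the widest of any member in that test, which called 39.8% of all genes, 22.7% higher and 17.1% lower, and it was steady. For Abcb1b it was -2.42 ± 0.34, adjusted p = 0.000498, with 0.08 ± 0.24 in gallbladder (not called) and 2.51 ± 0.24 in liver, and for Abcg2 it was 2.40 ± 0.54, adjusted p = 0.00644. In liver tissue the 2 Abcb1a arrays lay 1.38 apart.

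**Figure D3:**
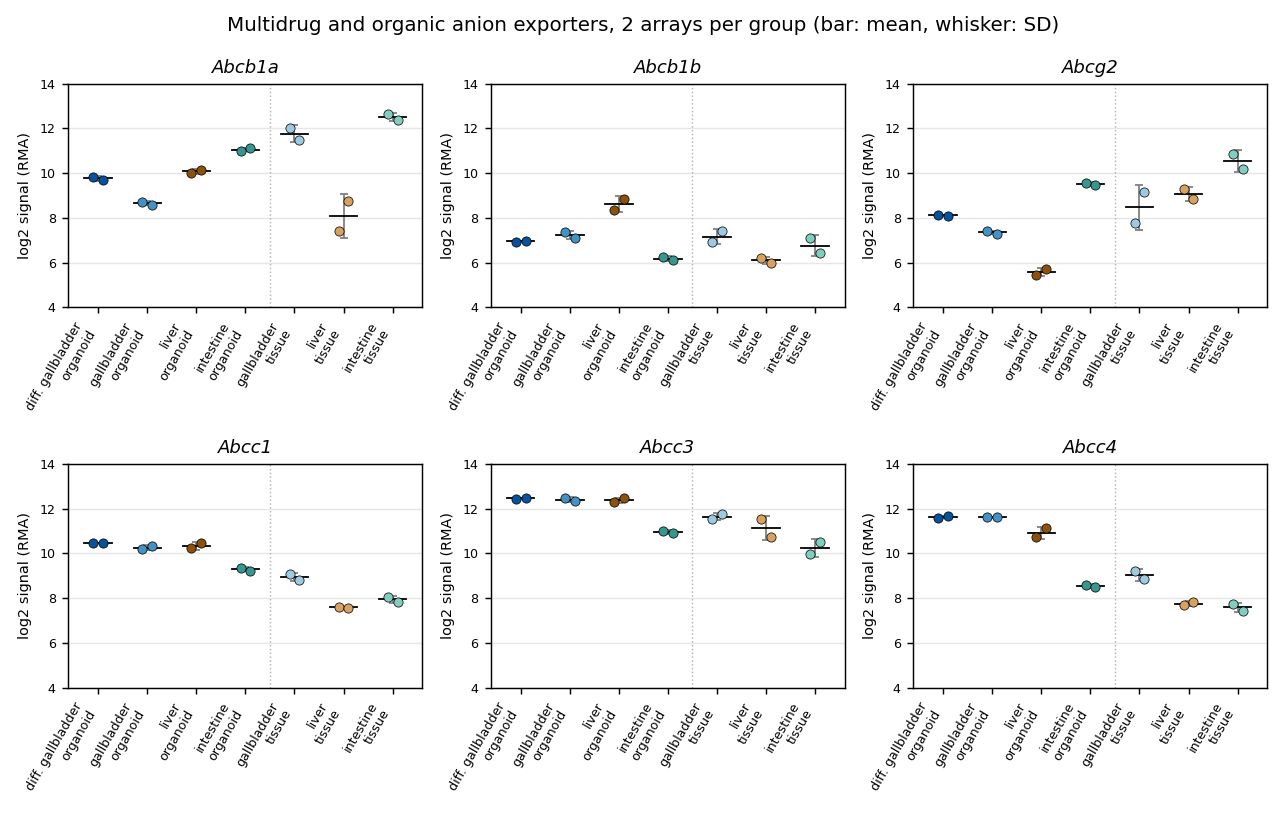
Log2 signal of 6 multidrug and organic anion exporters on each array (points), with the group mean (bar) and SD (whisker, n = 2 arrays), organoids left of the dotted line and tissues right of it. Abcb1a and Abcg2 are highest in small intestine tissue and Abcb1b in liver organoids, while Abcc1, Abcc3 and Abcc4 are higher in every organoid group than in the tissue of the same organ.

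Between gallbladder organoids with and without withdrawal of R-spondin 1, noggin and nicotinamide, no member passed the threshold. With limma 0 of 48 members were called between differentiated and undifferentiated gallbladder organoids, where 4.73% of all genes were, 2.8% higher and 1.93% lower. At an unadjusted p below 0.05, 4 were higher and 1 lower. The widest difference was that of Abcb1a, with 9.84 and 9.70 in differentiated and 8.72 and 8.59 in undifferentiated organoids (1.12 ± 0.35, adjusted p = 0.121). Abcg2 followed with 0.76 ± 0.38 (adjusted p = 0.366) and Abca1 with 0.60 ± 0.27 (0.3), and in none of these 3 did the arrays overlap. The arrays of these groups lie close together, and with only their own 4 arrays in the fit 10 members passed, as did 11 with array weights. The share of all genes called in those fits is not given here, so these counts cannot be set against 4.73%. The 10 called in both were Abca1, Abca4, Abca7, Abcb10, Abcb1a, Abcc5, Abcc8, Abcd3, Abcf2 and Abcg2, with adjusted p-values for Abcb1a of 0.000297 and 0.00016. Leaving out single arrays of other groups gave at most 1 call, Abcd3 without either gallbladder tissue array or Abcb1a without either liver tissue array. No bile exporter was called in any of the 3 fits, and Abcb11 read 5.51 and 5.65 in differentiated and 5.69 and 5.74 in undifferentiated organoids.

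Of 26 related genes outside the family, which take in partner ABC proteins, SLC carriers, nuclear receptors and membrane partners, 1 rose on withdrawal and 0 fell, where 2.8% of all genes rose, a share near that of the list. The gene was Nr1i2, the pregnane X receptor that switches on drug-handling genes, with 8.45 and 8.48 in differentiated and 6.96 and 6.79 in undifferentiated organoids (1.59 ± 0.10, adjusted p = 2.16e-05). Nr0b2, a repressor induced by bile acids, read 9.17 and 9.14 in differentiated and 6.66 and 7.005 in undifferentiated organoids (2.32 ± 0.58, adjusted p = 0.0527), without overlap. Whether Nr1i2 bears on Abcb1a was not tested.

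Gallbladder and liver organoids were both high in the biliary and gallbladder epithelium markers. With only the arrays compared they differed in 22 members, and with array weights in 20. The shares of all genes called in those 2 fits are not given here. In the fit to all arrays they differed in few members. Gallbladder organoids were higher in Abcg2 (1.78 ± 0.38, adjusted p = 0.014), Abcg1 (0.80 ± 0.22, adjusted p = 0.0393) and Abcc4 (0.69 ± 0.16, adjusted p = 0.0214). They were lower in Abcb1a (-1.42 ± 0.35, adjusted p = 0.0262), Abcb1b (-1.36 ± 0.24, adjusted p = 0.00543) and Abcc8 (-0.98 ± 0.10, adjusted p = 0.000258), a subunit of the ATP-sensitive potassium channel. These 6 of 48 members (12.5%) compare with 12.7% of all genes, 6.17% higher and 6.52% lower, a share near that of all genes. All 6 were called in all 3 fits, and no arrays overlapped. Abcc8 was the steady one, with 7.09 and 7.14 in gallbladder organoids and 8.10 and 8.09 in those of liver. The count fell to 2 without gallbladder organoid replicate 1, 1 without replicate 2 and 2 without either liver organoid array, and was 13 without either small intestine tissue array. Cftr, an ABC protein that serves as the chloride channel of secreting epithelia, read 9.02 and 8.89 in gallbladder organoids and 7.74 and 7.64 in those of liver (1.26 ± 0.21, adjusted p = 0.00374).

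With only the arrays compared, small intestine organoids differed from gallbladder organoids in 36 members and from liver organoids in 25. The share of all genes called in that fit is not given here. In the fit to all arrays they differed from both in many more members than gallbladder and liver organoids did from each other. Gallbladder organoids were higher in 12 and lower in 9 members (43.8%, against 35.6% of all genes, 20.2% higher and 15.4% lower), 15 of them steady. Liver organoids were higher in 10 and lower in 6 (33.3%, against 26.5%, 14.2% higher and 12.2% lower), 15 of them steady. These comparisons share the small intestine organoid arrays, so their likeness is not independent. The largest rises in gallbladder organoids were Abcc4 (3.08 ± 0.16), Abca1 (2.72 ± 0.27), Abcg1 (2.52 ± 0.22) and Abca5 (2.21 ± 0.20). In liver organoids these genes differed by 2.39 ± 0.16, 2.04 ± 0.27, 1.72 ± 0.22 and 2.78 ± 0.20. Of the nuclear receptors and partners known to act on ABC genes, 6 of 7 were lower in gallbladder organoids than in small intestine organoids, among them Nr1i2 (-3.52 ± 0.10), the bile acid receptor Nr1h4 (-2.10 ± 0.63) and the oxysterol receptor Nr1h3 (-2.18 ± 0.43).

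The cholesterol exporters Abca1 and Abcg1 differed in how they changed in culture. Abca1 (probe set 10512949, chromosome 4) hands cholesterol and phospholipid to apolipoprotein A-I. It read 10.22 and 10.30 in differentiated gallbladder organoids, 9.71 and 9.62 in gallbladder organoids, 8.94 and 9.04 in liver organoids, with 7.05 and 6.84 in those of small intestine, a descending row without overlap. The tissues read 11.20 and 11.13 in gallbladder, 11.68 and 11.11 in liver and 10.31 and 9.36 in small intestine. Abca1 was lower in organoids of every organ, with differences of -1.50 ± 0.27 in gallbladder, -2.41 ± 0.27 in liver and -2.88 ± 0.27 in small intestine, and each call was steady.

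Abcg1 (probe set 10443730, chromosome 17), which loads cholesterol onto high-density lipoprotein, did not follow it. It read 9.93 and 10.05 in gallbladder organoids and 8.92 and 8.13 in gallbladder tissue, higher in the organoids by 1.47 ± 0.22 (steady). It read 9.08 and 9.30 in liver organoids, against 9.16 and 8.88 in liver tissue, and 7.53 and 7.40 in small intestine organoids, against 8.13 and 7.99 in small intestine tissue, with differences of 0.17 ± 0.22 and -0.60 ± 0.22 that were not called in the fit to all arrays, though the second was with only the arrays compared (adjusted p = 0.0262). The change in gallbladder differed from that in liver by 1.30 ± 0.31, adjusted p = 0.00831 and from that in small intestine by 2.06 ± 0.31, adjusted p = 0.000845, both steady. Abca7, a phospholipid transporter, was higher in gallbladder organoids than in tissue (1.43 ± 0.16) and lower in small intestine organoids than in tissue (-0.66 ± 0.16), and the difference of these was 2.10 ± 0.22, adjusted p = 0.000128 (steady) in a test that called 36.6% of all genes, 22.3% higher and 14.3% lower. Its fall in small intestine organoids was not called with only the arrays compared (adjusted p = 0.0553) or without replicate 1 of either group.

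Abca5, a lysosomal lipid transporter, read 9.62 and 9.64 in liver organoids, 9.23 and 8.90 in gallbladder organoids and 6.94 and 6.77 in small intestine organoids. It was higher in liver organoids than in liver tissue (1.65 ± 0.20, steady), with 8.22 and 7.76 there. Abca3, which fills the lamellar bodies of the lung with surfactant lipid, read 10.40 and 10.36 in gallbladder organoids and 10.30 and 10.44 in liver organoids, against 9.02 and 9.02 in small intestine organoids. Gallbladder organoids were above the last by 1.36 ± 0.26 and liver organoids by 1.35 ± 0.26, both steady. Abca4, Abca12, Abca13, Abca17 and Abcg4 stayed within 1 log2 unit over all arrays.

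Most of a run of ABCA genes on chromosome 11 was low in organoids and high in liver or gallbladder tissue. Abca8b, Abca8a, Abca9, Abca6 and Abca5 follow each other with no protein-coding gene between them, and the substrates of the first 4 are not firmly known. Abca6 (probe set 10392601) read 5.24 and 5.02 in liver organoids, against 11.78 and 11.76 in liver tissue, a difference of -6.64 ± 0.65, adjusted p = 1.71e-05. In gallbladder organoids it read 5.43 and 5.36, against 8.08 and 10.86 in gallbladder tissue. All 8 organoid arrays and both small intestine tissue arrays (5.65 and 5.20) lay below 6. Abca8a (probe set 10392522) read 5.81 and 6.07 in gallbladder organoids and 9.22 and 10.25 in gallbladder tissue, and 5.65 and 5.46 in liver organoids and 10.66 and 10.47 in liver tissue. It read 5.69 and 5.50 in small intestine organoids, against 6.90 and 7.04 in small intestine tissue, so it was lower in organoids of every organ (-3.80 ± 0.26, -5.01 ± 0.26 and -1.38 ± 0.26, all steady).

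Of these 4, all were lower in organoids of gallbladder and of liver, and 2 of 4 in small intestine, where 15.2%, 18.2% and 15.6% of all genes were lower. The gallbladder call of Abca8b ended with only the arrays compared (adjusted p = 0.0836), without either gallbladder organoid array and without gallbladder tissue replicate 2, and the small intestine call of Abca9 ended without organoid replicate 2. All 6 fibroblast markers were lower in organoids of each organ, with means over the list of 6.63 to 7.08 in organoids and 9.01 to 10.75 in tissues. The fibroblast mean was 10.75 and 10.58 in gallbladder tissue, 9.11 and 9.07 in liver tissue and 9.11 and 9.01 in small intestine tissue. The hepatocyte mean was 13.12 and 14.06, 14.17 and 14.14, and 8.36 and 8.83 in these tissues. The part of either kind of cell was not tested. Abca9 was the member of the run with its highest mean in gallbladder tissue (7.38 and 8.29), against 7.10 and 7.65 in liver tissue and 6.07 and 5.84 in gallbladder organoids. Abca5 did not share the pattern of its neighbours. Without gallbladder tissue replicate 2, the calls of Abca6, Abca8a and Abca9 between gallbladder organoids and tissue held.

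Abcc9 and Abcd2 were likewise low in organoids. Abcc9 (probe set 10549108, chromosome 6) is the sulfonylurea receptor of ATP-sensitive potassium channels in vascular muscle and pericytes. It read 6.87 and 6.83 in gallbladder organoids and 9.78 and 9.98 in gallbladder tissue, 6.49 and 6.30 in liver organoids and 9.83 and 9.56 in liver tissue, and 6.42 and 6.41 in small intestine organoids and 8.83 and 7.97 in small intestine tissue. The organoids were lower in gallbladder (-3.03 ± 0.23), liver (-3.30 ± 0.23) and small intestine (-1.98 ± 0.23), each steady. Over 4 pericyte markers the arrays averaged 6.50 to 6.88 in organoids and 8.58 to 9.30 in tissues, over 5 endothelial markers 6.08 to 6.32 and 8.06 to 9.86, and over 5 smooth muscle markers 6.75 to 7.06 and 7.86 to 13.31. The part of those cells in the difference was not tested. Kcnj8, the pore that Abcc9 partners, fell with it in small intestine (-1.56 ± 0.22), liver (-1.59 ± 0.22) and gallbladder (-0.67 ± 0.22).

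Abcd2 (probe set 10431697, chromosome 15) carries very long chain fatty acids into peroxisomes. It read 5.99 and 5.84 in liver organoids, against 11.04 and 10.999 in liver tissue (-5.11 ± 0.17, adjusted p = 2.28e-08), and 6.005 and 6.03 in gallbladder organoids and 8.10 and 8.70 in gallbladder tissue (-2.38 ± 0.17, adjusted p = 3.47e-06). The fall was smaller in gallbladder than in liver, with 2.73 ± 0.24, adjusted p = 3.03e-05 between the differences, a steady call. The organoids of both organs read low and alike (means 6.02 and 5.91), so this value mostly restates the distance between the tissues (means 8.40 and 11.02). Abcd2 was also called lower in small intestine organoids than in tissue (-0.54 ± 0.17, adjusted p = 0.0314), which ended without any 1 of the 4 small intestine arrays. Abcd3, its widely expressed relative, was called lower in organoids of all 3 organs (-0.94 ± 0.26, -1.19 ± 0.26 and -0.95 ± 0.26), but in gallbladder not with only the arrays compared (adjusted p = 0.12) or without either gallbladder organoid array, and in small intestine not without 3 of its 4 arrays. With Abca1, Abca8a, Abca9, Abcc9 and Abcd2 it made up the 6 members lower in organoids of all 3 organs (12.5% of members, against 3% of all genes).

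**Figure D4:**
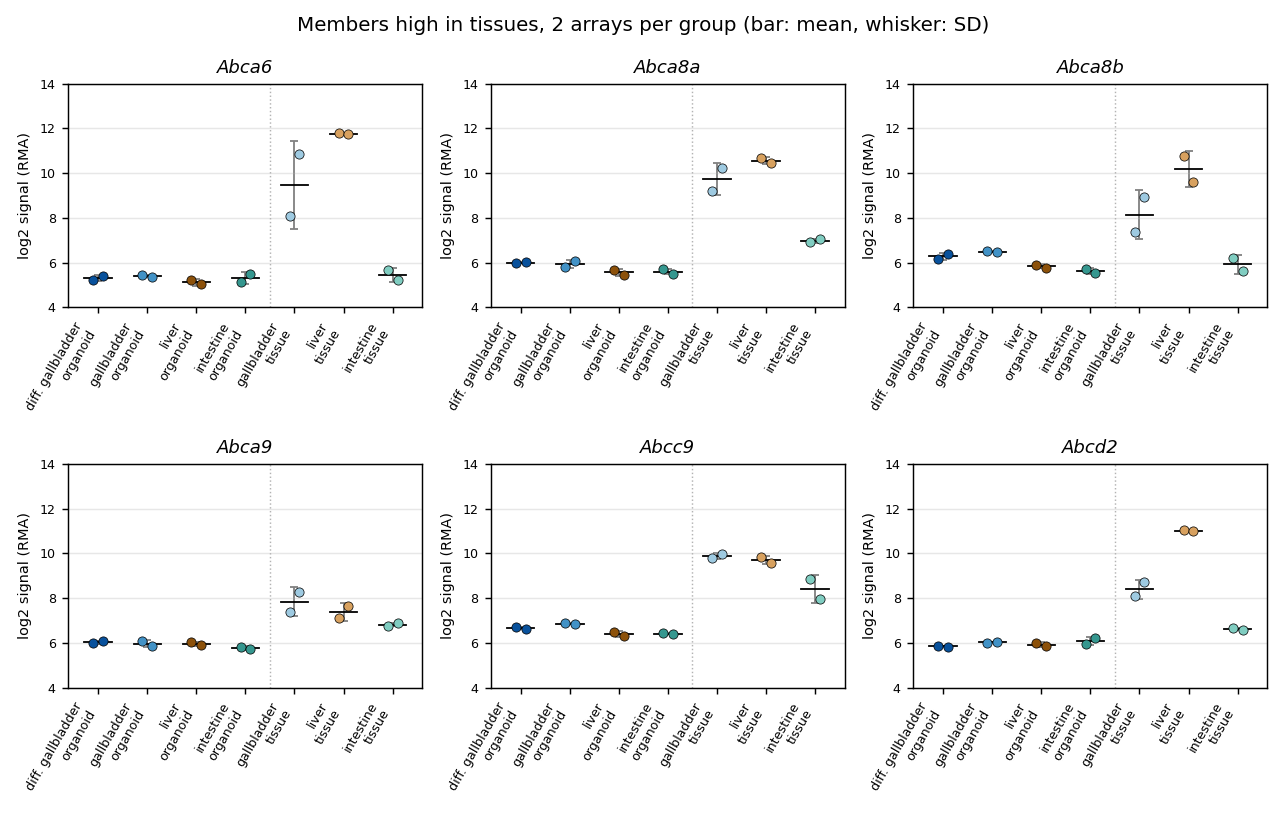
Log2 signal of 6 members that were high in tissues, on each array (points), with the group mean (bar) and SD (whisker, n = 2 arrays), organoids left of the dotted line and tissues right of it. Organoid arrays sit near the bottom of each panel, and the highest arrays are those of liver or gallbladder tissue.

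Of Abcb5, Abcb6, Abcb8, Abcb9 and Abcb10, 1 was higher and 0 lower in gallbladder organoids than in tissue. In liver 0 were higher and 2 lower, and in small intestine 1 was higher and 1 lower. Of the 4 ABCE and ABCF members, 2, 1 and 2 were higher in gallbladder, liver and small intestine organoids and 0 lower. Of all genes, 32.7%, 26.7% and 20.2% were higher in these 3 comparisons and 15.2%, 18.2% and 15.6% lower. Abcb8, a mitochondrial member, read 9.77 and 9.80 in small intestine organoids and 9.13 and 9.28 in small intestine tissue, and 9.32 and 9.33 in gallbladder organoids and 8.46 and 8.60 in gallbladder tissue. It was higher in organoids by 0.58 ± 0.11 and 0.79 ± 0.11, both steady and both under 1 log2 unit. Abcb6, a porphyrin transporter, read 8.48 and 8.33 in liver organoids, against 10.71 and 10.87 in liver tissue (-2.38 ± 0.42, steady). Abce1, which recycles ribosomes, was higher in small intestine organoids than in tissue by 1.26 ± 0.15 (steady), with 11.98 and 12.07 in the organoids and 10.61 and 10.91 in the tissue, and its small intestine tissue values were the lowest of all 14 arrays. Abcf1 and Abcf2, which act in translation and carry no substrate, were higher in gallbladder organoids than in tissue (0.91 ± 0.13 and 0.99 ± 0.09, both steady). Abca14, Abca15 and Abca16, a run of neighbours on chromosome 7 known from rodent testis, and Abcb5 stayed within 1 log2 unit, as did Abcc10.

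Over the whole family, liver organoids were higher in 10 members and lower in 18 than liver tissue (58.3%, where 26.7% of all genes were higher and 18.2% lower), of which 26 were steady. Gallbladder organoids were higher in 12 and lower in 15 than gallbladder tissue (56.2%, where 32.7% of all genes were higher and 15.2% lower), of which 18 were steady. Small intestine organoids were higher in 8 and lower in 11 than their tissue (39.6%, where 20.2% of all genes were higher and 15.6% lower), of which 10 were steady. These 19 calls became 11 without small intestine organoid replicate 1 and 12 without replicate 2. The median size of a member's difference was 1.04 in liver, 0.78 in gallbladder and 0.55 in small intestine, against 0.35, 0.40 and 0.29 over all genes. The plot of differences by organ gives each member with its standard error.

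**Figure D5:**
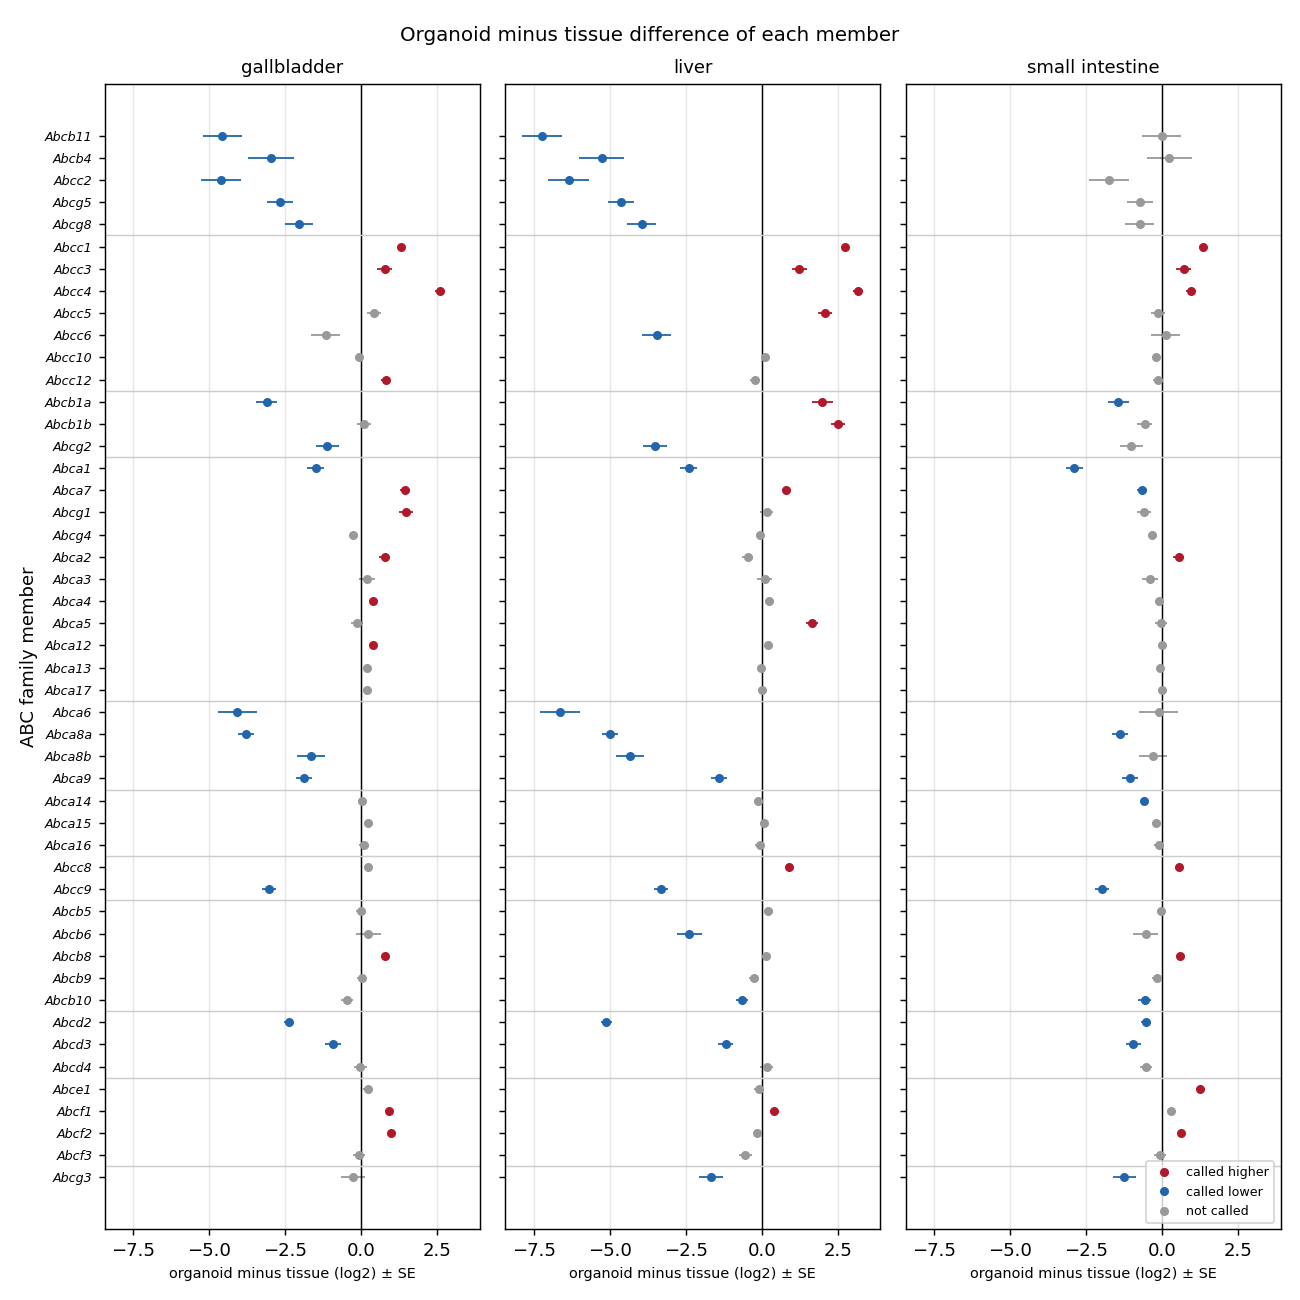
Organoid minus tissue difference in log2 signal for each member, with its standard error, in gallbladder, liver and small intestine, in red where called higher, blue where called lower and grey where not called (limma, n = 2 arrays per group). Liver has the widest differences and small intestine the narrowest, and Abcb1a lies on opposite sides of 0 in gallbladder and liver.

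The change in culture differed between gallbladder and liver in 22 members, 16 with a higher and 6 with a lower difference in gallbladder (45.8%, against 39.8% of all genes), and 15 of these were steady. Between gallbladder and small intestine it differed in 19, 9 higher and 10 lower (39.6%, against 36.6% of all genes), of which 9 were steady. Both shares are near those of all genes. The 19 calls became 9 without gallbladder organoid replicate 1, 10 without replicate 2, 10 without small intestine organoid replicate 1 and 11 without replicate 2. Both tests use the gallbladder arrays. Abcb11 had low organoid means of 5.71 in gallbladder, 5.38 in liver and 5.49 in small intestine. Its tissue means were 10.29, 12.61 and 5.50, so its values in these tests mostly restate the distance between tissues. Abcb11 stood in both, at 2.65 ± 0.91, adjusted p = 0.0416 against liver and -4.57 ± 0.91, adjusted p = 0.00401 against small intestine. The difference from liver was not called with only the arrays compared (adjusted p = 0.102) or without any 1 organoid or liver tissue array, and that from small intestine was steady.

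Among the tissues, gallbladder was higher than liver in 7 members and lower in 20 (48.1% of all genes called, 20.7% higher and 27.4% lower), but with only the arrays compared 10 members were called and 8 calls were steady. The steady calls higher in gallbladder tissue were Abcb1a (3.68 ± 0.35, adjusted p = 2.75e-05), Abcc1 (1.34 ± 0.13), Abcc4 (1.28 ± 0.16), Abca5 (1.21 ± 0.20) and Abcb1b (1.06 ± 0.24). Abcd2 (-2.62 ± 0.17), Abca2 (-0.999 ± 0.18) and Abcf2 (-0.97 ± 0.09) were the steady ones lower. The bile exporters that were called lower in gallbladder tissue were not called with only the arrays compared, Abcb11 for one at -2.32 (adjusted p = 0.145), and their gallbladder arrays lie 1.81 to 3.28 apart.

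Gallbladder tissue was higher than small intestine tissue in 15 members and lower in 13 (45% of all genes called, 20.7% higher and 24.3% lower), 10 of them steady. Abcb11 (4.79 ± 0.64), Abca8a (2.76 ± 0.26), Abca5 (2.30 ± 0.20) and Abcc4 (1.45 ± 0.16) were higher and Abcg8 (-3.15 ± 0.47) was lower, all steady. Liver tissue was higher than small intestine tissue in 17 and lower in 8 (37.5% of all genes called, 18.7% higher and 18.8% lower), 14 of them steady. Abcb11 (7.11 ± 0.64), Abca6 (6.34 ± 0.65), Abcb4 (5.33 ± 0.74) and Abcd2 (4.40 ± 0.17) led the first, and Abcb1a (-4.41 ± 0.35) the second. Abcc2, at 12.40 and 12.32 in liver and 12.27 and 12.50 in small intestine tissue, overlapped.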

How the data were processed

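RNA from 7 groups with 2 Affymetrix arrays each was compared. The authors deposited log2 probe set signals, made with RMA per the submitters' processing notes, whose version is not given in the sources used here. RMA corrects background, quantile-normalises and summarises probes, so scanner intensities and detection calls were not analysed here. Probe sets were named from the platform annotation. Of 35556 probe sets, 21789 carry 1 gene symbol, 1621 several and 12146 are not listed. The brightest single-symbol probe set stood for each of 19938 genes.

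With limma 3.58.1 in R 4.3.3, all 14 arrays entered 1 fit with a level for each group (7 residual degrees of freedom), with 10 comparisons and 2 differences between comparisons, and p-values were Benjamini-Hochberg adjusted over all genes. This fit was also run on simulated data in which every gene of a group had the same spread. Between gallbladder and liver tissue it made more false calls there than a fit to the arrays compared. Between organoids it missed more small changes. Real genes differ in spread, so this was not tested for these data. Alternatives were quantile normalisation, median centring, the dimmest 40% of genes left out, probe sets averaged, only the arrays compared, array weights, a trended robust prior, a minimum difference of 1, the replicate number as a block and each array left out. A crossed block was added after seeing the data. Named members were up to 10 called ones per direction with the widest difference and no overlap between arrays (6 in the 2 differences between comparisons), plus 11 exporters of bile and drugs. Others named for a role, or as not called, were chosen after their values were seen. Members and lists were chosen with earlier results of these data known. The number of arrays limits the precision. Same-numbered replicates had correlations of deviations from -0.104 to 0.109, so the numbers were not taken to pair samples. Sequences are from RefSeq (GRCm38.p6), and 38 members matched a promoter entry, the first listed being used for each gene.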

Additional observations from a re-analysis of the deposited data

Results flagged for a closer look

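The organoid minus tissue difference was not the same in every organ, and the members below were picked out because a test of the difference between organs passed (limma, adjusted p below 0.05, 2 arrays per group). Gallbladder minus liver gave -5.10 for Abcb1a, -2.42 for Abcb1b, -1.78 for Abca5, -1.66 for Abcc5, -1.43 for Abcc1 and -0.67 for Abcc8. On the other side stood Abcd2 at 2.73, Abca8b at 2.69, Abcb11 at 2.65, Abcb6 at 2.62, Abca6 at 2.56 and Abcg2 at 2.40. Abcb11 and Abca6 are not steady among these. In Abcd2, Abcb11 and Abca6 the organoid means of both organs were low, from 5.13 to 6.02, so these values mostly restate the distance between the tissues.

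Gallbladder minus small intestine gave -4.57 for Abcb11, -3.96 for Abca6, -3.20 for Abcb4, -2.87 for Abcc2, -2.42 for Abca8a and -1.96 for Abcg5. It gave 2.10 for Abca7, 2.06 for Abcg1, 1.63 for Abcc4, 1.38 for Abca1, 0.94 for Abcc12 and 0.62 for Abcf1. Of the first 6, Abcb4, Abcc2 and Abcg5 are not steady, nor are Abca1 and Abcf1 of the others. Organoid means of gallbladder and small intestine lay close in Abcb11 (5.71 and 5.49), Abca6 (5.39 and 5.31) and Abcb4 (6.65 and 6.56). The values of these 3 members mostly restate the distance between the tissues. The mean of the hepatocyte markers was 13.12 and 14.06 in gallbladder tissue, against 8.36 and 8.83 in small intestine tissue, and its part in these values was not tested.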

How the results depend on the processing

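Of 183 called differences of named members, none reversed under any alternative, and of their 4158 recomputed values 3868 kept the call and 290 lost it. Most of these differences could hardly reverse. Their members were mostly named for arrays that do not overlap, and several alternatives leave the group means unchanged. With only the arrays compared, the members called numbered 10 for differentiated against undifferentiated gallbladder organoids, 22 for gallbladder against liver organoids, 36 and 25 for gallbladder and liver against small intestine organoids, 10 and 10 for gallbladder against liver and small intestine tissue, and 11 for the change in gallbladder against that in small intestine. Array weights gave 11, 20, 35 and 25 for the 4 comparisons between organoids in that order. The shares of all genes called under these alternatives are not given here. A minimum difference of 1 log2 unit left 3 for gallbladder against liver organoids, 13 for gallbladder against small intestine organoids, 8 for small intestine organoids against tissue, and 15 and 17 for gallbladder against liver and small intestine tissue. Without the dimmest 40% of genes the change in gallbladder against small intestine had 12. Without 1 array the counts ran 0 to 1 (differentiated against undifferentiated), 1 to 13 (gallbladder against liver organoids), 17 to 25 and 15 to 20 (gallbladder and liver against small intestine organoids), 21 to 28, 26 to 30 and 11 to 26 (organoid against tissue in gallbladder, liver and small intestine), 19 to 31, 26 to 32 and 21 to 31 (gallbladder against liver, gallbladder against small intestine and liver against small intestine tissue), and 15 to 30 and 9 to 22 (the change in gallbladder against liver and small intestine). The replicate number as a block gave 0, 7, 21, 17, 28, 29, 18, 27, 29, 26, 19 and 19 in the same order, and a crossed pairing of the gallbladder organoids, chosen after seeing the data, gave 0. The values that reversed were uncalled differences of differentiated from undifferentiated organoids. Abcc4 was -0.023 under quantile normalisation and -0.014 when centred, and ran from -0.026 to 0.037 without 1 array (-0.007 without undifferentiated replicate 2), Abcc2 from -0.014 to 0.217 and Abcc3 from -0.024 to 0.123. Centring moved the median of all genes by -0.115 between gallbladder and liver tissue and by 0.119 in the change in gallbladder against liver. The cause of these changes was not tested.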
